A study of Mus musculus with 14 samples.

Results

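The interferon regulatory factors (IRFs) described here are 7 genes, Irf1, Irf2, Irf3, Irf5, Irf7, Irf8 and Irf9, taken by gene symbol from a table of 26683 symbols. All 7 were found and all 7 were expressed highly enough to be among the 13427 genes tested. The family gene Irf4 is not a member and is used for context.

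IRFs are transcription factors that share a DNA-binding domain recognising GAAA-containing elements. IRF3, IRF5 and IRF7 are activated by phosphorylation downstream of nucleic acid and Toll-like receptors and switch on type I interferon and inflammatory cytokine genes, IRF9 joins STAT proteins in the interferon-induced complex ISGF3, and IRF1 is an interferon-gamma target whose activating sites are also bound by the antagonist IRF2. IRF8 is best known from myeloid cells and B cells, and in helper T cells IRF1 is tied to the Th1 programme. Lupus is a disease with a strong interferon component, and IRF5 is among its known human risk genes.

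RNA was sequenced from splenic CD4 T cells of 8-month-old female mice of 2 strains. The controls were C57BL/6J (B6) mice, and the lupus-prone mice were B6.NZM-Sle1NZM2410/AegSle2NZM2410/AegSle3NZM2410/Aeg/LmoJ, called TC here, congenic animals that carry 3 susceptibility intervals, each with many genes, on the B6 background. Each spleen gave follicular helper T cells (Tfh), sorted as CD4+CD44+ with low or no CD162 and with PD-1, and naive T cells (Tn), sorted as CD4+CD44-. There were 4 B6 mice and 3 TC mice, hence 4 libraries per cell type in B6 and 3 in TC. No group was given a treatment, and nothing in either gate removed regulatory T cells. Library totals ran from 15162309 to 20191558 counts, and 3 counts correspond to 0.149 to 0.198 CPM (counts scaled to 1000000 per library). The gates matched their markers: all 7 Tfh markers, including Cxcr5, Bcl6 and Il21, were called higher in Tfh than Tn in both strains, and all 7 naive markers, including Ccr7 and Lef1, were called lower. Levels below are CPM after TMM scaling (a trimmed-mean correction for composition), and a ± b is a mean ± SD over 4 B6 or 3 TC libraries. Calls rest on edgeR's quasi-likelihood test over all 13427 genes, with p-values adjusted by Benjamini-Hochberg and a threshold of 0.05, and every adjusted p below comes from that test unless another tool is named. In bulk RNA of this kind, fewer cells of a type and less RNA per cell cannot be told apart.

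Between Tfh and Tn the IRFs split 3 ways, in the same manner in both strains. Irf5 and Irf8 rose in Tfh, Irf5 by more than 10-fold. Irf1, Irf7 and Irf9 fell, by 1.29-fold to 1.65-fold. Irf2 and Irf3 did not pass the test. Thus 5 of 7 members were called in B6, 2 higher and 3 lower, where 70.3% of all genes tested were called, 36.9% higher and 33.3% lower. In TC the count was again 5 of 7, 2 higher and 3 lower, where 66.1% of genes were called, 33.7% higher and 32.4% lower. Tfh and Tn libraries did not overlap for the same 5 members in each strain, against 63.9% of genes in B6 and 71.3% in TC. The share of members called was near that background, so the count itself sets the IRFs apart from no other genes. The strain comparison gave smaller differences, at most 1.25-fold, and all of those called were lower in TC.

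**Figure D1:**
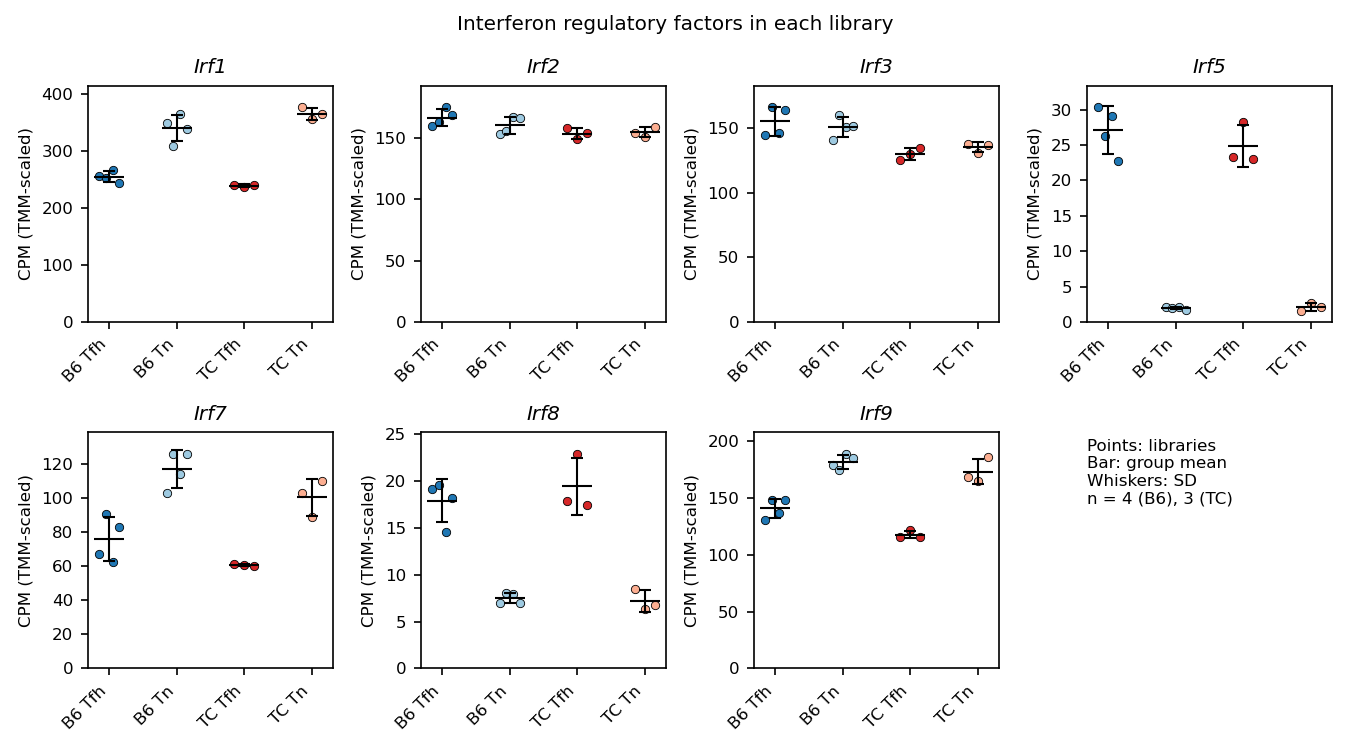
Level of each of the 7 IRF genes in every library, in TMM-scaled CPM on linear axes that start at 0, by strain and cell type. Points are libraries, bars are group means and whiskers are SD (n = 4 for B6, 3 for TC). Irf5 stood at 22.7 to 30.3 CPM in B6 Tfh and 1.74 to 2.11 CPM in B6 Tn, whereas the Irf2 libraries of Tfh and Tn overlapped.

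The promoters of the members were read from RefSeq on GRCm38.p6, the assembly of mm10, with all 7 matched. Each window ran from 250 bases before to 50 bases after a start, 300 bases in all, and 3 letter patterns were searched on both strands: the core of the interferon-stimulated response element (GAAA, any 2 bases, GAAA), the STAT-binding gamma-activated sequence TTCNNNGAA, which reads the same on both strands, and the ETS-IRF composite element (GGAA, any 2 bases, GAAA). The first and the last can overlap. Only Irf1, Irf2 and Irf8 held a match, and their stretches are shown because the 3 genes behaved differently between Tfh and Tn: Irf1 fell, Irf2 did not pass and Irf8 rose. Capitals mark the matched letters and all 3 stretches lie on the plus strand.
Irf1: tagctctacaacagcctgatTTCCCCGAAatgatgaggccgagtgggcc
Irf2: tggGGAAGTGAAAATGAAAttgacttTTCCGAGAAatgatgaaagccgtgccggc
Irf8: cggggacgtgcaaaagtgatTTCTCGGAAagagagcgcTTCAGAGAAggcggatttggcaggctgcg

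The Irf1 stretch is chr11:53769904-53769952, 110 to 62 bases before the start, with 1 match to the gamma-activated sequence. The Irf8 stretch, chr8:120736167-120736233, lies 191 to 125 bases before the start and holds 2 such matches. In the Irf2 stretch, chr8:46739495-46739549, 250 to 196 bases before the start, the composite element and the response element core overlap in the first block of capitals, and the second block matches the gamma-activated sequence. Of 32851 promoters, 8.3% held TTCNNNGAA, 3.44% the response element core and 2.72% the composite element. Irf1 and Irf8, which both hold TTCNNNGAA, moved in opposite directions between Tn and Tfh, as the values below show. A match describes letters only, and the windows of Irf3, Irf5, Irf7 and Irf9 held none of these patterns.

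Irf1 (chr11:53770014-53778374, plus strand, mm10) encodes the activating factor of the interferon-gamma response. In B6 Tfh it stood at 256, 252, 267 and 244 CPM, and in B6 Tn at 348, 309, 365 and 338 CPM. TC Tfh held 240, 236 and 240 CPM, and TC Tn 376, 355 and 364 CPM. No Tfh library reached the lowest Tn library in either strain. Irf1 fell 1.34-fold in B6 Tfh (log2 fold change -0.42, SE 0.05, adjusted p = 8.11e-07) and 1.53-fold in TC Tfh (log2 fold change -0.61, SE 0.06, adjusted p = 4.78e-08). Within single mice, the Tfh to Tn ratio was 0.722 to 0.815 in the 4 B6 mice and 0.637 to 0.664 in the 3 TC mice.

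Irf2 (chr8:46739732-46847458, plus strand), whose product competes with IRF1 for its sites, differed little between the cells. B6 Tfh libraries lay at 160 to 175 CPM and B6 Tn at 153 to 167 CPM, and all 6 TC libraries at 149 to 159 CPM. The log2 fold change of Tfh over Tn was 0.06 in B6 (approximate 95% interval, as for all intervals here, -0.03 to 0.14, adjusted p = 0.271) and -0.01 in TC (-0.11 to 0.09, adjusted p = 0.913). The intervals leave room for differences of at most about 0.14 on the log2 scale. On library totals without TMM scaling, a choice made after seeing the data, Irf2 was called higher in B6 Tfh (log2 fold change 0.19, adjusted p = 0.000586). That scaling moved the median of all genes from 0.02 to 0.15 in B6 and from -0.01 to 0.10 in TC. It also raised the share of called genes that were higher in Tfh from 52.6% to 65.6% in B6 and from 51.0% to 61.4% in TC.

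As Irf1 moved and Irf2 did not pass, the ratio of Irf1 to Irf2 counts within a library differed between the cells. The ratio was 1.44 to 1.60 in B6 Tfh and 1.98 to 2.27 in B6 Tn. In TC it was 1.52 to 1.58 in Tfh and 2.29 to 2.45 in Tn. The Tfh ranges of the 2 strains overlapped and both lay below both Tn ranges, and every TC Tn library lay above every B6 Tn library.

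Irf3 (chr7:44997648-45002848, plus strand), the constitutive factor activated downstream of STING, MAVS and TRIF, was also similar in both cells. B6 Tfh stood at 145, 166, 146 and 164 CPM and B6 Tn at 141, 160, 151 and 152 CPM. TC Tfh held 125, 130 and 135 CPM and TC Tn 138, 131 and 137 CPM. Tfh and Tn overlapped in both strains, while every TC library lay below every B6 library of its cell type. The log2 fold change of Tfh over Tn was 0.04 in B6 (-0.06 to 0.15, adjusted p = 0.507) and -0.06 in TC (-0.18 to 0.06, adjusted p = 0.432). Irf3 was called higher in B6 Tfh on library totals without TMM scaling (log2 fold change 0.18, adjusted p = 0.00632).

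Irf7 (chr7:141262706-141266481, minus strand) is the interferon-inducible factor that amplifies type I interferon production. In B6 Tfh it stood at 67.3, 90.6, 62.8 and 83.1 CPM, and in B6 Tn at 103, 126, 114 and 126 CPM. TC Tfh held 61.6, 60.9 and 60.1 CPM and TC Tn 103, 88.8 and 110 CPM. The B6 Tfh libraries were spread widely, with mice 2 and 4 above mice 1 and 3, whereas the 3 TC Tfh libraries nearly coincided. Irf7 fell 1.54-fold in B6 Tfh (log2 fold change -0.62, SE 0.11, adjusted p = 0.000106) and 1.65-fold in TC Tfh (log2 fold change -0.72, SE 0.13, adjusted p = 0.000144). It was lower in Tfh than Tn in all 7 mice, with ratios of 0.55 to 0.721 in B6 and 0.548 to 0.685 in TC.

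Irf9 (chr14:55603571-55610030, plus strand), the DNA-binding subunit of ISGF3, followed Irf1 and Irf7. B6 Tfh held 131, 148, 137 and 148 CPM and B6 Tn 179, 175, 189 and 185 CPM. TC Tfh held 116, 122 and 116 CPM and TC Tn 169, 165 and 186 CPM. Tfh and Tn did not overlap. Irf9 fell 1.29-fold in B6 Tfh (log2 fold change -0.37, SE 0.05, adjusted p = 4.53e-06) and 1.47-fold in TC Tfh (log2 fold change -0.56, SE 0.06, adjusted p = 2.12e-07). The ratio of Irf9 to Irf3 counts within a library was 0.89 to 0.936 in Tfh and 1.1 to 1.27 in Tn of B6, and 0.855 to 0.943 in Tfh and 1.23 to 1.36 in Tn of TC, so that the Tfh ranges lay below the Tn ranges. Stat2, whose product is a partner of IRF9 in ISGF3, had a log2 fold change of -0.06 in B6 (adjusted p = 0.338) and -0.27 in TC, where it was called lower in Tfh (adjusted p = 0.000621).

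Irf5 (chr6:29526625-29541871, plus strand), which acts downstream of MyD88, rose most of the 7. Tfh libraries held 30.3, 26.2, 29.1 and 22.7 CPM in B6, against 2.11, 1.97, 2.05 and 1.74 CPM in B6 Tn. In TC the values were 23.3, 28.3 and 23.0 CPM in Tfh and 1.56, 2.73 and 2.12 CPM in Tn. Every Tfh library stood far above every Tn library, and the Tn libraries still held 28 to 43 counts. Irf5 rose 13.7-fold in B6 Tfh (log2 fold change 3.78, SE 0.14, adjusted p = 8.66e-14) and 11.7-fold in TC Tfh (log2 fold change 3.55, SE 0.16, adjusted p = 2.42e-12). Of all genes tested, 92.7% had a lower log2 fold change in B6 and 92.2% in TC. The gene overlaps exons of Tnpo3 on the other strand over 411 bases, 14.1% of its exon length, and whether counting used strand is not given in the sources used here. Tnpo3 was called slightly lower in Tfh, 1.08-fold in B6 and 1.18-fold in TC (adjusted p = 0.0205 and 0.00027). Its level was far above that of Irf5, at 130 ± 4.09 CPM in Tfh and 140 ± 3.81 in Tn of B6. In TC it was 125 ± 2.02 CPM in Tfh and 147 ± 5.18 in Tn. The part of Tnpo3 reads in the Irf5 counts was not tested.

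Irf8 (chr8:120736358-120756694, plus strand), a partner of ETS and AP-1 factors, rose less. B6 Tfh stood at 19.2, 19.6, 14.6 and 18.2 CPM and B6 Tn at 7.01, 8.04, 7.96 and 7.02 CPM. TC Tfh stood at 17.9, 22.9 and 17.5 CPM and TC Tn at 8.52, 6.30 and 6.74 CPM. The groups did not overlap, and the lowest Tfh library, from B6 mouse 3, still lay above the highest Tn library. Irf8 rose 2.39-fold in B6 Tfh (log2 fold change 1.25, SE 0.12, adjusted p = 4.5e-08) and 2.69-fold in TC Tfh (log2 fold change 1.43, SE 0.14, adjusted p = 8.26e-08). The Tfh to Tn ratio per mouse ran from 1.83 to 2.74 in B6 and from 2.11 to 3.64 in TC.

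**Figure D2:**
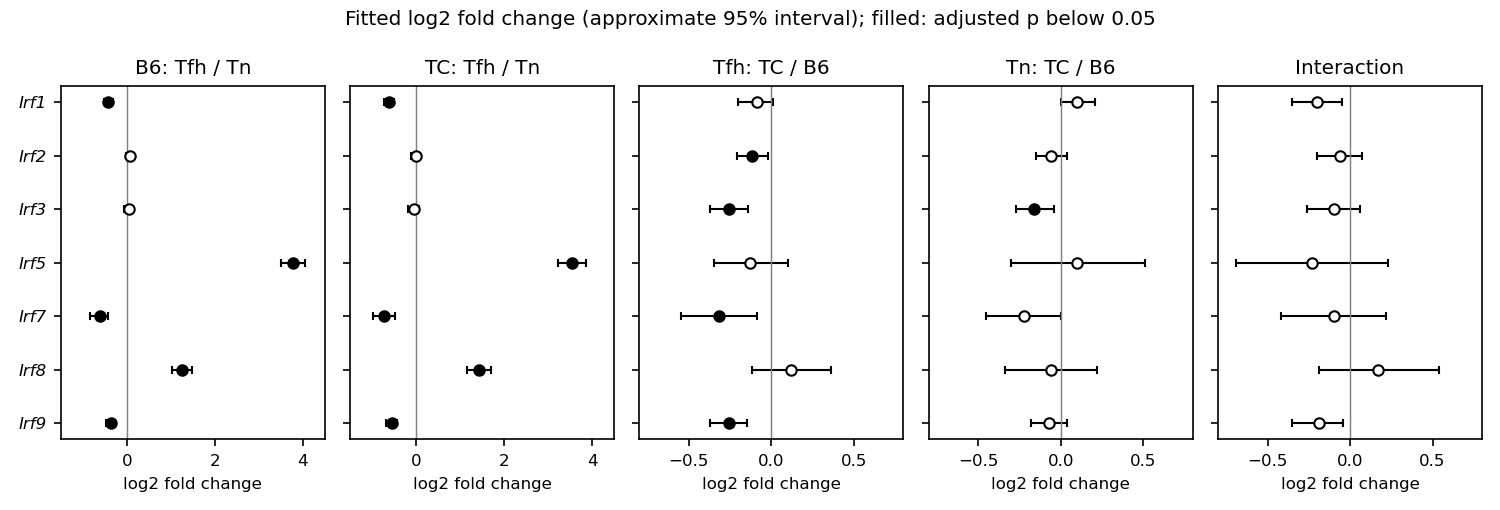
Fitted log2 fold change of each IRF gene in the 5 comparisons, with whiskers of the approximate 95% interval, on a wider axis for the 2 comparisons of Tfh with Tn. Filled points passed an adjusted p of 0.05 in edgeR. Irf5 stood at 3.78 in B6 and 3.55 in TC, and no interaction point is filled.

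Irf5 and Irf8 are abundant in B cells and myeloid cells, so markers of those cells were measured beside them. The summed level of 12 B cell markers was 111 to 121 CPM in Tfh and 3.48 to 5.55 in Tn of B6, and 77.9 to 104 in Tfh and 3.43 to 4.85 in Tn of TC. Most of this was Cd22, at 92.2 ± 8.66 CPM in B6 Tfh and 58.5 ± 18.2 in TC Tfh. Pax5 stood at 12.0 ± 3.76 and 16.6 ± 4.86 CPM, and Cd79b at 6.37 ± 1.03 and 6.58 ± 1.30 CPM, in the same groups. Of the 7 B cell markers tested, 5 rose in Tfh and 0 fell in each strain, and Cd79a and Bank1 did not pass. The risers were Cd22, Pax5, Cd79b, Spib and Blk. Spib rose 12-fold in B6 (adjusted p = 0.000647) and 49.1-fold in TC (adjusted p = 2.4e-05). Blk rose 31-fold (adjusted p = 5.99e-05) and 78.6-fold (adjusted p = 0.000333), with no count in TC Tn. In level, 7 of the 12 markers averaged under 1 CPM in Tfh of both strains. Among them were Blk (0.64 CPM in B6 Tfh, 0.53 in TC Tfh), Ms4a1 (0.585 and 0.310 CPM) and Cd79a (0.598 and 0.397 CPM). In CPM, with no correction for length, Ms4a1, encoding the surface protein CD20, was thus far below Irf5 and Irf8, while Cd22 was above both.

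The 16 myeloid and dendritic markers summed to 21.1 to 35.2 CPM in Tfh and 12.9 to 18.5 in Tn of B6, and to 21.5 to 31.6 in Tfh and 14.7 to 24.2 in Tn of TC. Of these 16, 12 averaged under 1 CPM in B6 Tfh and 13 in TC Tfh. Only 5 of the 16 were high enough to test, and in Tfh 4 rose and 1 fell in B6, and 2 rose and 1 fell in TC. The 2 that rose in both strains moved with Irf5 and Irf8: Cebpb to 12.6 ± 2.08 CPM in B6 (3.64-fold, adjusted p = 1.01e-05) and 19.2 ± 5.06 CPM in TC (2.28-fold, adjusted p = 0.00093), and Mpeg1 to 2.81 ± 1.1 CPM (adjusted p = 1.63e-05) and 2.25 ± 1.20 CPM (adjusted p = 2.17e-05). In CPM, with no correction for length, Cebpb in TC Tfh was close to Irf8, which averaged 19.5 there. Lyz2, encoding lysozyme, rose to 5.03 ± 4.04 CPM in Tfh of B6 (adjusted p = 0.0174), although its Tfh and Tn libraries overlapped there. In Tfh of TC it stood at 0.0771 ± 0.0325 CPM. Cd68 rose 3.52-fold in B6 (adjusted p = 8.85e-06) but did not pass in TC (adjusted p = 0.081). Itgam went the other way in both strains, 15.2-fold lower in B6 Tfh (adjusted p = 1.04e-09) and 40.4-fold lower in TC Tfh (adjusted p = 1.18e-08). These genes are named after their values were seen.

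The 6 markers of plasmacytoid dendritic cells summed to 76.6 to 82.1 CPM in Tfh and 56.5 to 72.5 in Tn of B6, and to 78.1 to 78.9 in Tfh and 57.1 to 67.2 in Tn of TC. Of the 4 tested, 2 rose and 2 fell in each strain. Runx2 rose to 36.4 ± 1.83 CPM in B6 (34.1-fold, adjusted p = 2e-16) and 39.6 ± 2.33 CPM in TC (37-fold, adjusted p = 1.75e-15), and Tcf4 3.96-fold (adjusted p = 1.34e-07) and 3.32-fold (adjusted p = 2.9e-06). Bst2 fell 1.83-fold (adjusted p = 5.28e-05) and 2.11-fold (adjusted p = 4.75e-05), and Ccr9 7.01-fold (adjusted p = 1.89e-08) and 5.28-fold (adjusted p = 1.99e-06). Siglech, a defining marker of these cells, had no count in any group. The 6 plasma cell markers summed to 132 to 156 CPM in Tfh and 64.8 to 68.8 in Tn of B6, and to 117 to 140 in Tfh and 53.5 to 66.5 in Tn of TC, and of the 4 tested 4 rose in B6 and 3 in TC. Regulatory T markers, among them Foxp3 and Il2ra, summed to 1510 to 1796 CPM in Tfh and 153 to 201 in Tn of B6, and to 1931 to 2475 in Tfh and 117 to 155 in Tn of TC, and so moved with the Tfh gate as Irf5 and Irf8 did. The part of these marker lists in the Irf5 and Irf8 results was not tested.

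**Figure D3:**
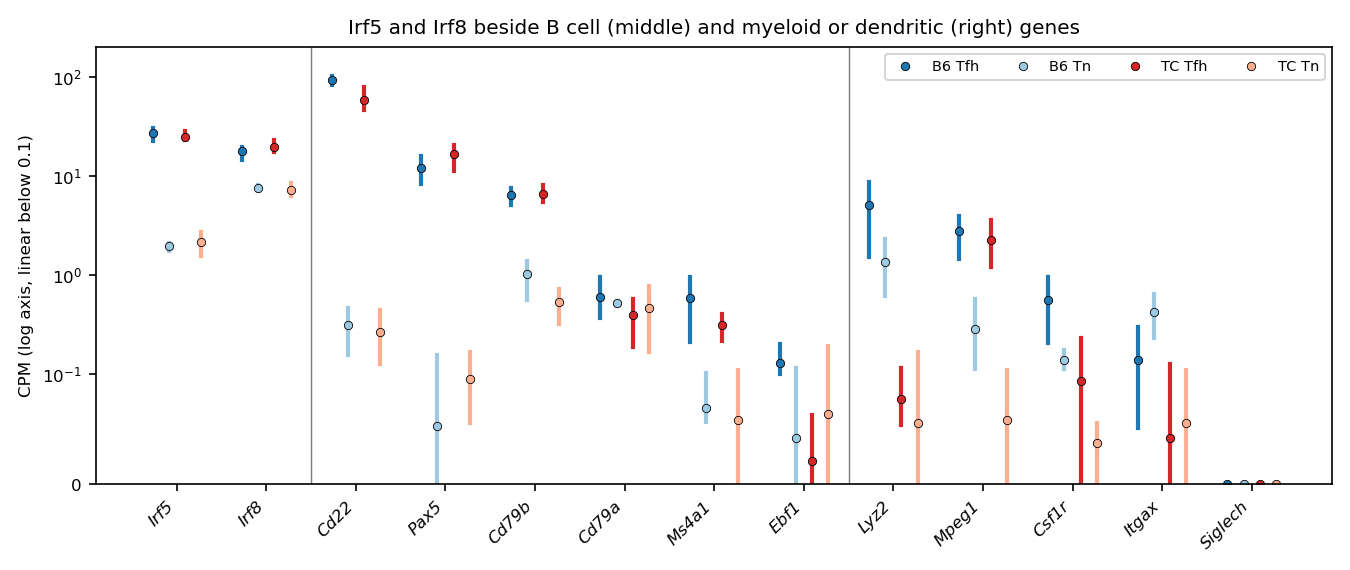
Mean level (points) and range over libraries (lines) of Irf5 and Irf8, of 6 B cell genes and of 5 myeloid or dendritic genes in each group, in CPM on a log axis that is linear below 0.1. In Tfh, Irf5 averaged 27.1 CPM in B6 and 24.9 CPM in TC. Cd22 averaged 92.2 and 58.5 CPM there and Pax5 12.0 and 16.6 CPM, while Ms4a1 and Cd79a averaged under 1 CPM. Cebpb and Cd68 are not shown.

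To compare levels between genes, CPM was divided by the length of the longest principal transcript of GENCODE M21. Irf1 had the highest level per length of the 8 family genes (the members and Irf4) in all 14 libraries, at 119 ± 4.43 CPM per kb in Tfh and 159 ± 11.1 in Tn of B6, and 112 ± 1.20 in Tfh and 171 ± 4.99 in Tn of TC. Irf3, Irf2 and Irf9 followed within 47.9 to 76.5 CPM per kb as group means, then Irf7 at 31.8 to 61.1. Irf5 and Irf8 came last of the members in each group, with Irf5 above Irf8 in Tfh and below it in Tn. Neighbouring members whose ranges overlapped were Irf3 and Irf9 in B6 Tn and TC Tn, Irf2 and Irf7 in B6 Tn, and Irf3 and Irf2 in TC Tfh. With the union of all annotated exons as the length, Irf1 stayed first in every group, whereas Irf7 moved above Irf2 in both Tn groups.

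As a share of the summed level per length of the 8 genes, Irf1 made up 28.8% ± 1.43 in Tfh and 36.2% ± 2.11 in Tn of B6, and 30.8% ± 0.318 in Tfh and 39.9% ± 1.04 in Tn of TC. Irf5 went from 0.2% ± 0.0198 in B6 Tn to 2.92% ± 0.426 in B6 Tfh, and from 0.224% ± 0.0691 to 3.06% ± 0.37 in TC. Irf8 went from 0.601% ± 0.0458 to 1.52% ± 0.206 in B6 and from 0.589% ± 0.0868 to 1.89% ± 0.295 in TC. Irf4, the factor that pairs with BATF in activated T cells, went from 0.581% ± 0.142 to 8.89% ± 1.25 in B6 and from 0.577% ± 0.0803 to 7.51% ± 0.371 in TC, and its level was called higher in Tfh of both. With the union of exons as the length, the Irf4 share was 15.9% ± 2.08 in Tfh and 1.13% ± 0.274 in Tn of B6, and 13.6% ± 0.656 in Tfh and 1.12% ± 0.153 in Tn of TC. On that length Irf5 held 4.14% ± 0.585 in Tfh and 0.308% ± 0.0304 in Tn of B6, and 4.41% ± 0.539 and 0.344% ± 0.106 in TC, and Irf8 went from 0.484% to 1.13% in B6 and from 0.473% to 1.42% in TC, so the size of a share depends on the length used. Shares of one whole depend on each other, so part of the lower Irf1 share in Tfh follows from the other genes.

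**Figure D4:**
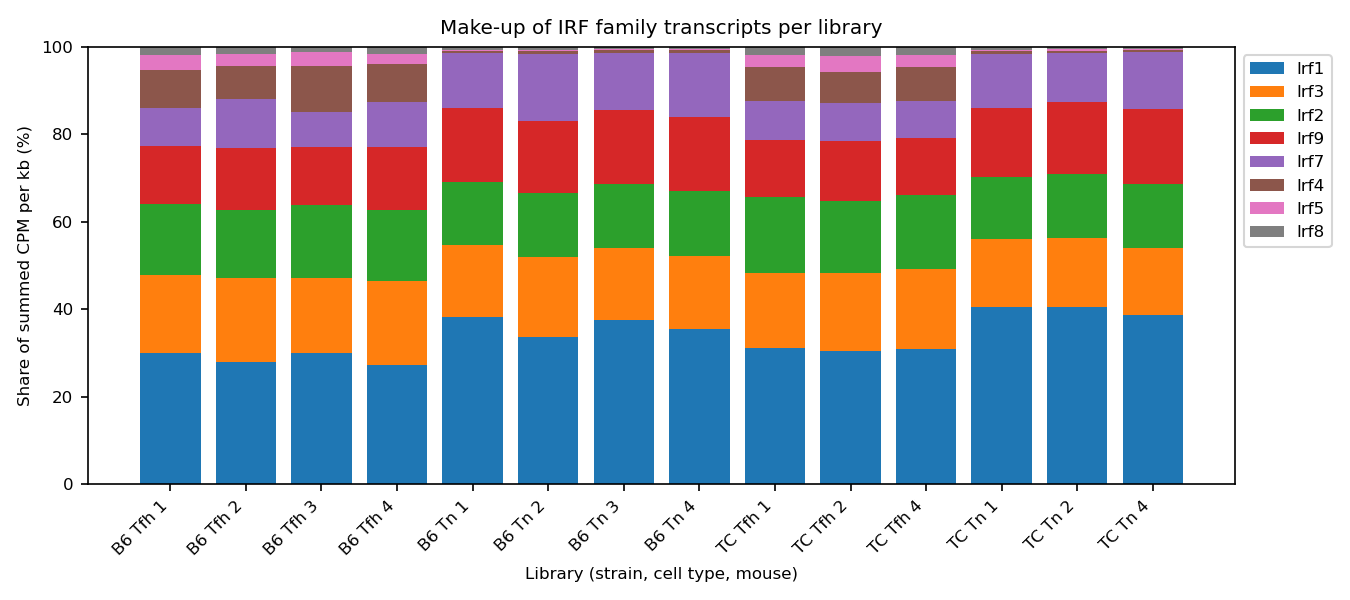
Share of the summed CPM per kb of 8 IRF family genes taken by each gene, as stacked bars that reach 100%, for each of the 14 libraries. Irf1 was the largest part of every bar, and Irf4, Irf5 and Irf8 were wider in Tfh than in Tn of both strains.

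Between the strains, the members differed less. In Tfh, 4 of 7 members were called, all lower in TC, where 49.7% of all genes were called, 24.2% higher and 25.5% lower. Libraries of the strains did not overlap for 5 members, those 4 and Irf1, against 50.2% of genes. Irf3 fell 1.19-fold (log2 fold change -0.26, SE 0.06, adjusted p = 0.0015), and Irf9 fell 1.20-fold (log2 fold change -0.26, SE 0.06, adjusted p = 0.00112). These 2 calls held in all 22 settings run. Irf7 was 1.25-fold lower (log2 fold change -0.32, SE 0.12, adjusted p = 0.0367), and Irf2 was 1.09-fold lower (log2 fold change -0.12, SE 0.05, adjusted p = 0.0489).

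The Irf7 call ended on leaving out B6 Tfh 2, B6 Tfh 4 or any 1 of the TC Tfh libraries, with adjusted p of 0.0924 to 0.124, and without B6 Tfh 2 the log2 fold change was -0.21. It also ended with no filter on low counts (adjusted p = 0.0689) and with only the groups compared (adjusted p = 0.0714), and stood in 15 of 22 settings. The Irf2 call stood in 6 of 22 settings and ended on leaving out any 1 of the 4 B6 Tfh or 3 TC Tfh libraries, with adjusted p of 0.0684 to 0.274. Outside the members, Irf4 was also lower in TC Tfh, 1.35-fold (adjusted p = 0.023). Irf1, Irf5 and Irf8 did not pass in Tfh. Their log2 fold changes of TC over B6 were -0.09 for Irf1 (interval -0.20 to 0.01, adjusted p = 0.164), -0.13 for Irf5 (-0.35 to 0.10, adjusted p = 0.382) and 0.12 for Irf8 (-0.12 to 0.36, adjusted p = 0.448).

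In Tn, 1 of 7 members was called, where 52% of all genes were, 25.9% higher and 26.1% lower. The strains did not overlap for Irf3 alone of the members, against 55.5% of genes. Irf3 was 1.12-fold lower in TC (log2 fold change -0.16, SE 0.06, adjusted p = 0.0302), and the call ended on leaving out B6 Tn 2, 3 or 4 or TC Tn 2 or 4 (adjusted p 0.0524 to 0.115). Of the others, Irf7 had the largest estimate, -0.22 (-0.45 to 0.00, adjusted p = 0.122), and Irf1 had 0.10 (-0.00 to 0.21, adjusted p = 0.127). On library totals without TMM scaling Irf3 was not called in Tn (adjusted p = 0.0761) and Irf1 was called higher in TC (log2 fold change 0.13, adjusted p = 0.0465). Irf5 (0.10, -0.30 to 0.51, adjusted p = 0.703) and Irf8 (-0.06, -0.34 to 0.22, adjusted p = 0.764) had wide intervals at their low Tn counts. Irf2 and Irf9 stood at -0.06 (adjusted p = 0.353) and -0.07 (adjusted p = 0.336).

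Other measures moved with strain in the same libraries. Jun, an immediate early gene, went from 3.55 ± 0.367 CPM in B6 to 284 ± 135 in TC among Tfh, and from 9.10 ± 1.80 to 372 ± 180 among Tn. Ribosomal protein genes made up 3.18 to 4.19% of counts in Tfh of B6 against 2.58 to 2.65% of TC, and 7.17 to 8.44% in Tn of B6 against 5.50 to 6.00% of TC. Their part in the strain differences of the IRFs was not tested. Whether Irf3 and Irf7, both on chromosome 7, lie within a congenic interval was not examined here.

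No member was called in the interaction, which asks whether the Tfh to Tn ratio differed between strains, where edgeR called 2.32% of all genes (312), 0.953% higher and 1.37% lower. DESeq2, limma voom and the fit with mouse as a block also called no member, although over all genes the block called 736. At an unadjusted p under 0.05 there were 2 members, Irf1 (log2 difference -0.20, SE 0.08, interval -0.35 to -0.05, adjusted p = 0.234) and Irf9 (-0.19, SE 0.08, -0.35 to -0.04, adjusted p = 0.261). Irf5 stood at -0.23 (-0.69 to 0.23, adjusted p = 0.727) and Irf8 at 0.17 (-0.19 to 0.54, adjusted p = 0.743). The 2 comparisons of Tfh with Tn come from different mice, while each strain comparison shares its libraries with them.

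Genes that act before the IRFs moved both ways. Of 21 nucleic acid sensing genes tested, 9 rose and 8 fell in B6 Tfh (median log2 fold change 0.05, against 0.02 over all genes), and 9 rose and 6 fell in TC Tfh (median 0.08, against -0.01). Unc93b1, the chaperone of endosomal Toll-like receptors, rose 7.39-fold in B6 (adjusted p = 5.14e-15) and 6.97-fold in TC (adjusted p = 1.01e-13), to 52.5 ± 1.65 and 49.1 ± 2.90 CPM. Ddx58, the RNA sensor RIG-I, fell 1.77-fold (adjusted p = 2.95e-11) and 1.86-fold (adjusted p = 1.08e-10). Tlr4 rose from 0.0974 ± 0.0265 to 8.17 ± 1.27 CPM in B6 (adjusted p = 1.62e-12) and from 0.254 ± 0.176 to 13.9 ± 1.34 CPM in TC (adjusted p = 4.77e-12). The B6 Tn mean of Tlr4 lay below the level of 3 counts. Tmem173, encoding STING, rose 1.45-fold in B6 (adjusted p = 1.42e-08) and 1.48-fold in TC (adjusted p = 7.51e-08). Over all genes, 70.3% were called in B6 and 66.1% in TC, the background for this and the following list counts between Tfh and Tn.

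By strain, the sensing list held 5 higher and 3 lower genes in TC Tfh and 4 higher and 4 lower in TC Tn (medians -0.01 and -0.02), against a background of 49.7% and 52% of genes called. The kinases that phosphorylate IRF3 and IRF7 were both higher in TC. Ikbke rose 1.51-fold in Tfh (adjusted p = 4.29e-06) and 1.59-fold in Tn (adjusted p = 8.36e-07), and Tbk1 1.18-fold (adjusted p = 0.000155) and 1.19-fold (adjusted p = 0.000111). Myd88, the adaptor before IRF5 and IRF7, fell 1.37-fold in Tfh (adjusted p = 6.15e-06) and 1.25-fold in Tn (adjusted p = 8.83e-05). RNA levels of kinases do not show their activity.

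Among interferon ligands, receptors and JAK-STAT partners, 5 of 14 rose and 7 fell in B6 Tfh (median -0.20), and 6 rose and 8 fell in TC Tfh (median -0.30). Ifng, whose product induces Irf1, rose to 22.4 ± 2.75 CPM in B6 (adjusted p = 7.65e-12) and 33.3 ± 7.42 CPM in TC (adjusted p = 2.89e-11). Its Tn libraries held few counts, with means of 0.114 ± 0.139 CPM in B6, below the level of 3 counts, and 0.249 ± 0.0751 CPM in TC. Ifngr2, the signalling chain of its receptor, fell 6.64-fold in B6 (adjusted p = 2.52e-15) and 5.63-fold in TC (adjusted p = 7.94e-14), to 11 ± 1.31 and 13.2 ± 0.870 CPM. Jak2 rose 2.15-fold (adjusted p = 2.92e-12) and 2.30-fold (adjusted p = 1.11e-11). By strain, 3 were higher and 2 lower in TC Tfh and 2 higher and 5 lower in TC Tn (medians -0.03 and -0.10). Tyk2, a kinase of the type I interferon receptor, was higher in both, 1.15-fold (adjusted p = 0.00183) and 1.23-fold (adjusted p = 3.85e-05).

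Genes that the IRFs act on were mixed as well. Of 28 interferon-stimulated genes known as ISGF3 targets, 14 fell and 5 rose in B6 Tfh (median -0.27), and 10 fell and 6 rose in TC Tfh (median -0.07). Ifit2 fell 2.68-fold in B6 (adjusted p = 1.83e-12) and 3.04-fold in TC (adjusted p = 4.53e-12), and Oasl1 5.14-fold (adjusted p = 5.17e-10) and 5.13-fold (adjusted p = 9.16e-09). Eif2ak2, the RNA-activated kinase PKR, rose 2.01-fold (adjusted p = 9.6e-08) and 2.28-fold (adjusted p = 1.15e-07). In TC relative to B6, 7 fell and 3 rose in Tfh (median -0.22, against -0.02 over all genes) and 10 fell and 3 rose in Tn (median -0.28, against -0.01). Rtp4 was lower in TC Tfh, 1.52-fold (adjusted p = 0.00047), and in TC Tn, 1.5-fold (adjusted p = 0.000303), and Isg15 was lower in TC Tfh, 1.76-fold (adjusted p = 0.000743), and in TC Tn, 1.87-fold (adjusted p = 0.000324).

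In the list of IRF1-linked antigen presentation and interferon-gamma genes, 9 of 20 rose and 7 fell in B6 Tfh (median 0.05), and 8 rose and 6 fell in TC Tfh (median -0.11). The caspase gene Casp1 rose 10.9-fold (adjusted p = 2.6e-13) and 19.7-fold (adjusted p = 5.52e-13) in B6 and TC. Cxcl10, a chemokine gene, rose to 34.7 ± 4.60 CPM (adjusted p = 1.08e-13) and 22.4 ± 3.63 CPM (adjusted p = 5.43e-12), from 0.219 ± 0.124 and 0.148 ± 0.129 CPM in Tn. The TC Tn mean of Cxcl10 lay below the level of 3 counts. Others of the list had lower means in Tfh, as Irf1 did. Among them, Igtp stood at 136 ± 8.88 CPM in Tfh and 274 ± 26.3 in Tn of B6. In TC it stood at 109 ± 3.6 CPM in Tfh and 224 ± 13.1 in Tn. Any link of these genes to the Irf1 level was not tested. By strain, 10 were lower and 3 higher in TC Tfh, and 10 lower and 4 higher in TC Tn (medians -0.18 and -0.23). The immunoproteasome subunits Psmb8 and Psmb10 fell 1.36-fold each in TC Tfh (adjusted p = 9.73e-06 and 1.49e-05), and the MHC class I light chain gene B2m 1.45-fold (adjusted p = 2.42e-05).

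Of 13 IRF binding partners and cofactors tested, 7 rose and 5 fell in B6 Tfh (median 0.44, against 0.02 over all genes), and 6 rose and 3 fell in TC Tfh (median -0.03, against -0.01), where 70.3% and 66.1% of all genes were called. Batf, the AP-1 factor that binds DNA with IRF4 or IRF8, rose 4.86-fold in B6 (adjusted p = 1.48e-12) and 5.03-fold in TC (adjusted p = 1.35e-11), to 166 ± 15.7 and 140 ± 10.6 CPM. Of those that fell, Ikzf1 was 2.28-fold lower in B6 Tfh (adjusted p = 3.17e-12). In TC it stood at 534 ± 26.8 CPM in Tfh and 1009 ± 34.1 in Tn. Spi1, the ETS partner PU.1, was among 3 genes of the list too low to test, at 0.368 ± 0.245 CPM in B6 Tfh. Irf2bp2, a corepressor that binds IRF2, rose 1.62-fold in Tfh of B6 (adjusted p = 6.9e-09) and 1.94-fold in Tfh of TC (adjusted p = 8.61e-10), and was 1.45-fold higher in TC Tfh than B6 Tfh (adjusted p = 3.3e-06).

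**Figure D5:**
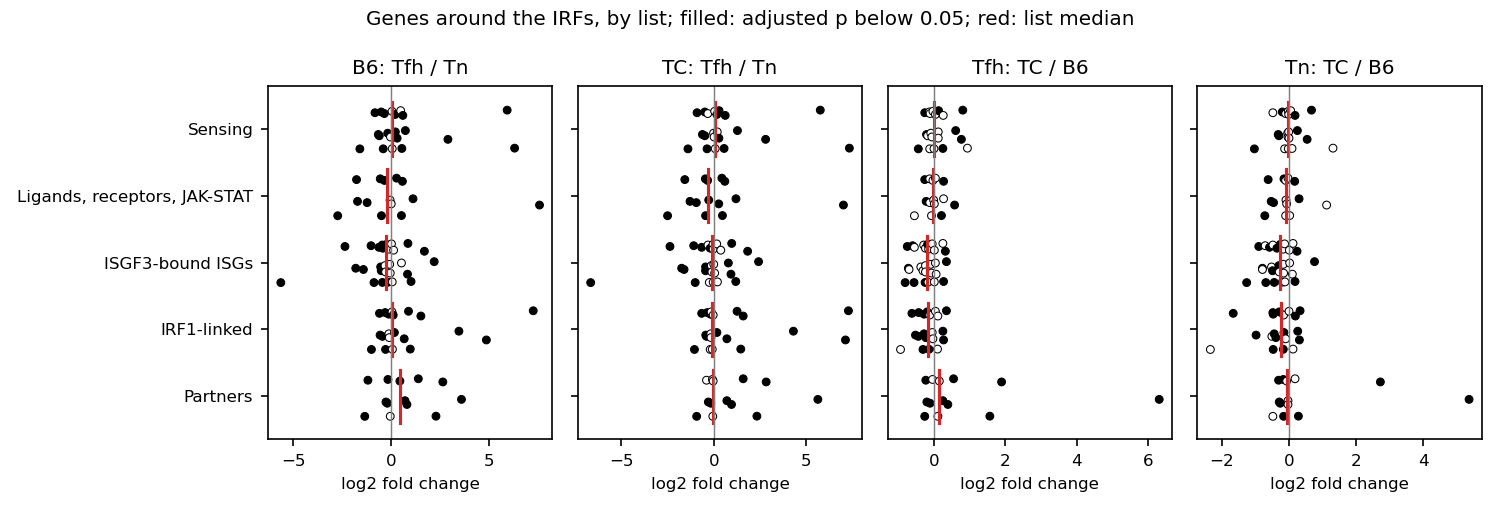
Log2 fold change of every tested gene in 5 lists around the IRFs (points), with the list median (red line), for Tfh over Tn in B6 and TC and for TC over B6 in Tfh and Tn, on a separate axis in each panel. Filled points passed an adjusted p of 0.05 in edgeR. The median of the interferon-stimulated list was -0.27 and -0.07 between cells and -0.22 and -0.28 between strains.

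The genes most like a member in pattern were sought for Irf5 and Irf8, the 2 members whose group means spanned at least 1 log2 unit, among 9319 genes of at least 5 CPM. Likeness was the root mean square difference of log2 CPM, centred per gene, over the 14 libraries. Nearest to Irf5 were Alox8 (0.17) and Wls (0.22). Alox8, a lipoxygenase gene, had means of 21.3 and 1.54 CPM in Tfh and Tn of B6, then 20.3 and 1.65 CPM in Tfh and Tn of TC. Near to Irf8 was Aim1l (0.16), with means of 14.2 and 6.17 CPM in Tfh and Tn of B6, then 15.4 and 5.44 CPM in Tfh and Tn of TC. These are distances over libraries that fall into 4 groups and describe the pattern only.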

How the data were processed

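The authors deposited 1 table of raw read counts, with a column per library and a row per gene symbol, and all 14 columns were used. STAR 2.7, DESeq2 and the mm10 build are named, with no order, per the submitters' processing notes. Which program counted reads, with which annotation and strand option, is not given in the sources used here, so antisense and overlapping genes are uncertain. The reference is of the B6 strain, and no correction for TC alleles was made here. Groups follow the sample titles, although a source label calls Tn samples Tfh and the protocol text speaks of WT and KO mice.

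Genes passing filterByExpr at a count minimum of 10 (13427) received TMM factors, and the quasi-likelihood model of edgeR 4.0.16 (robust, 4 group means, no block) was fitted in R 4.3.3. CPM used TMM-scaled totals of those genes. P-values were adjusted over all 13427 genes. The 5 comparisons were Tfh against Tn per strain, TC against B6 per cell type, and their interaction. Pathway lists are described by counts and medians. Named genes were the members, Irf4, Stat2 and Ifng, and per list and comparison up to 3 called genes with the smallest adjusted p and at least 5 CPM. Some genes that this rule names are not reported here, and shares of the IRF family were computed over the members and Irf4. Members, lists and comparisons were chosen with earlier results of these data known. Replicate numbers mark mice, since Tfh and Tn came from the same spleen. Deviations from group means correlated within a mouse at 0.0395 to 0.299.

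Alternatives were DESeq2 1.42.0, limma 3.58.1 voom (mouse as random), RLE size factors, no filter, a count minimum of 50, only the groups compared, the mouse block, each library left out, and (chosen after seeing the data) library totals. Library pairs within a group all differed by more than sampling noise (chi-square per degree of freedom at least 5.31). Tested on simulated data, the fit recovered 75 to 88% of 2-fold changes and 49 to 72% of 1.5-fold changes over the 5 comparisons, each on 13427 genes. Each simulation changed 200 genes, as many up as down, and left every other gene at the same mean in all groups. More genes than that were called in the real data, so these rates need not hold there. Gene positions and lengths came from GENCODE M21 (mm10), in which 24745 symbols matched 1 gene. Floors of 3 counts cover counting error only.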

Additional observations from a re-analysis of the deposited data

How the results depend on the processing

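Calls of the members between Tfh and Tn held at 5 of 7 in each strain under all alternatives run but 1: on library totals 7 members were called in B6, Irf2 and Irf3 being added. For TC against B6 in Tfh, 2 members were called when only the groups compared were fitted and 2 to 4 on leaving out single libraries, 2 being without B6 Tfh 2 or 4 or TC Tfh 1, 2 or 4. In Tn the count was 0 without a filter on low counts, 0 at a count minimum of 50, and 0 to 1 on leaving out single libraries, 0 being without B6 Tn 2, 3 or 4 or TC Tn 2 or 4. On library totals the 1 member called in Tn was Irf1 instead of Irf3. No member reversed a called direction. With mouse as a replicate block no call of a member changed between Tfh and Tn or in the interaction. TC against B6 could not be fitted with that block, since each mouse has 1 strain. Over all genes the interaction called 312 genes, 736 with the replicate block, 580 with limma voom, 533 with DESeq2, and 159 to 344 on leaving out single libraries, lowest (159 to 205) without B6 Tn 2 or 3, TC Tfh 1 or 4, or TC Tn 1 or 2. The cause was not tested. Irf5 and Irf8 in Tn rest on fewer counts than the other members.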

Other observations

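The endosomal receptors that feed IRF5 and IRF7 moved apart in B6, a pair chosen after its values were seen. Tlr7 went from 12.7 ± 0.682 CPM in Tn to 4.17 ± 0.948 in Tfh of B6, and from 6.19 ± 1.17 to 4.99 ± 2.12 in TC, and it fell in B6 Tfh (log2 fold change -1.60, edgeR adjusted p = 3.17e-06) but did not pass in TC (-0.32, adjusted p = 0.27). The difference between those changes missed the threshold (adjusted p = 0.0516). Tlr9 rose in Tfh, from 0.0791 ± 0.122 to 5.45 ± 2.22 CPM in B6 (adjusted p = 1.35e-05) and from 0.0610 ± 0.0638 to 10.4 ± 6.50 CPM in TC (adjusted p = 9.03e-06), with Tn means below the level of 3 counts.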
